A study of Mus musculus with 11 samples.

Results

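The loss of Tyrobp was examined in microglia that also lacked 1 copy of Inpp5d, in a mouse model with amyloid plaques. Tyrobp-/-;Inpp5d+/-;NLGF, called the compound mutant here, was compared with Inpp5d+/-;NLGF, with 3 libraries in each group. These 6 of the 11 libraries of the series were chosen by their genotype label, and the comparison runs over the 20390 of 55401 annotated rows that had adequate counts. Both groups carried the NLGF alleles, a knock-in of a humanised and mutated App gene from which plaques form, and both carried the heterozygous Inpp5d allele, so that the Tyrobp genotype alone separates them by label. All mice were C57BL/6 and 9 to 10 months old, and no Cre driver is named for any of the alleles. Cells positive for CD11b and CD45 had been sorted live from brain by flow cytometry as microglia, and their RNA was sequenced from full-length cDNA. The other 5 libraries, 2 of Tyrobp-/-;NLGF and 3 of NLGF, entered the same statistical model and are used below to compare the Tyrobp difference between both Inpp5d backgrounds.

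Tyrobp encodes DAP12, a small membrane adaptor with an ITAM motif. TREM2 and several other myeloid receptors have no signalling tail of their own and pass their signal through DAP12 to the kinase SYK and on to PI3-kinase. Inpp5d encodes SHIP1, a phosphatase that removes the lipid product of PI3-kinase and so opposes this pathway. Microglia near plaques are known to take on the disease-associated (DAM) state in 2 stages, of which the first lowers homeostatic genes and the second, which needs TREM2, raises genes of phagocytosis, lipid handling and the lysosome.

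The Tyrobp label was checked first. Tyrobp (chr7:30413760-30417585, GRCm38) was at 3.22, 8.39 and 3.88 CPM (read counts scaled by the library total after TMM normalisation) in compound replicates 1 to 3, and at 1952, 2177 and 2306 CPM in Inpp5d+/-;NLGF replicates 1 to 3. The compound mutant thus kept 0.241% of the control level. Inpp5d stood at 189.8, 259.9 and 259.5 CPM in the compound libraries and 279.8, 219 and 191 CPM in the Inpp5d+/-;NLGF libraries, and the groups overlapped. Both groups share the Inpp5d+/- label, so these values do not check it. Library totals were 49929944 to 62155834 counts in the compound mutant and 34788079 to 50416930 in Inpp5d+/-;NLGF. A floor of 3 counts corresponds to 0.0478 to 0.0864 CPM in these libraries. The microglial markers P2ry12, Tmem119, Cx3cr1, Csf1r and Sall1 were present in every library. For example, P2ry12 was at 5644 ± 473 CPM in the compound mutant and 5098 ± 331 CPM in Inpp5d+/-;NLGF (SD, n = 3).

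Libraries stood apart in the RNA of other cells, and this has to be read beside every result. The summed level of 16 neutrophil markers was 496, 10253 and 2660 CPM in compound replicates 1 to 3, against 463, 373 and 571 CPM in the controls. Most of the control sum came from Csf3r. Without it the remaining 15 markers summed to 9975 and 2295 CPM in compound replicates 2 and 3 and to 132, 54.7 and 190 CPM in Inpp5d+/-;NLGF, with compound replicate 1 between the others and the controls. S100a8, which neutrophils express strongly, stood at 94, 3645 and 783 CPM against 43.7, 10.1 and 61.4 CPM, so that compound replicate 2 was the highest of the 6. Stfa2l1 was the 1 neutrophil marker at 0 in all 6 libraries. Monocyte markers (19 genes) summed to 181, 1611 and 459 CPM in the compound libraries and to 29.9 to 108 CPM in the controls. Neuron markers (16 genes) summed to 40.1 CPM in compound replicate 1, against 6.42 and 8.83 CPM in the other two and 8.06 to 13.9 CPM in the controls. Sums of border-associated macrophage markers were 157 to 300 CPM against 101 to 205 CPM, and those of astrocyte markers 236 to 288 CPM against 184 to 273 CPM. The 22 markers of T, B and NK cells summed to 525 to 582 CPM against 522 to 569 CPM. Of these markers, 8 were at 0 in all 6 libraries, among them Cd3e and Ncr1. In sorted bulk samples, more cells of a type and more RNA per cell cannot be told apart. The running numbers in the sample titles lie in separate ranges for the compound libraries and the controls, so the effects of Tyrobp genotype and of any handling order or litter cannot be told apart. The labels do not say which libraries come from which animals, and p-values therefore measure the spread between these libraries.

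Of the 20390 genes, 183 passed an adjusted p of 0.05 in edgeR's quasi-likelihood test (0.897%), with 54 higher (0.265%) and 129 lower (0.633%) in the compound mutant. The decreases were the larger changes. The median log2 fold change was -1.25 among the lower genes and 0.84 among the higher ones, and 85 lower but 17 higher genes changed at least 2-fold. Over all tested genes the median was 0.02. None of the 183 genes had overlapping groups, and over all genes 9.36% were higher and 9.22% lower with no overlap of 3 and 3 libraries. With the neutrophil marker level as a covariate 46 genes passed, and without compound replicate 2 and the Tyrobp-/-;NLGF library with most S100a8 50 did. The count was 66 and 79 without compound replicate 1 or 2, and 104, 79 and 90 without Inpp5d+/-;NLGF replicate 1, 2 or 3. All 183 kept their sign in each of these fits. Among the genes named below, Itgax, Cd200r4, Stard4, Ctse, S100a10, Ifi47, Igtp, Enox2 and Ms4a6b passed in 2 of the 11 fits with a library left out, Cyp51, Ltc4s, Atf3, Plaur and Bcl2l11 in 1, and Clec7a, Tcap, Slc11a2, Dph7, Apbb2, Gm49369, Blvrb and Slc25a24 in 3. At least 4-fold changes were found for 43 lower and 7 higher genes, as the plot of fold change against level shows.

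**Figure D1:**
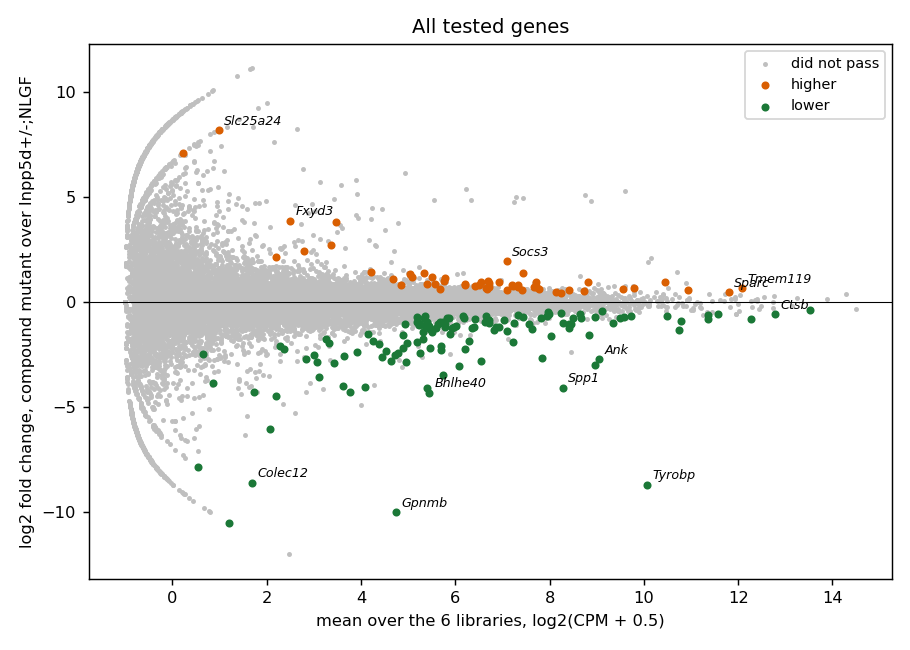
Every tested gene by its mean over the 6 libraries (x axis, log2 of CPM + 0.5) and its log2 fold change in the compound mutant over Inpp5d+/-;NLGF (y axis). Grey points did not pass; the 54 orange and 129 green points passed as higher and lower, of which 85 lower and 17 higher genes lie beyond 2-fold; Tyrobp and Gpnmb are among the lowest, and Tmem119 and Sparc among the abundant genes that rose.

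Few transcripts of the receptor pathway around DAP12 passed apart from Tyrobp and its neighbour. Of 24 genes of TREM2 adaptor signalling, 2 fell (Tyrobp and Hcst) and none rose, and 9 had an unadjusted p under 0.05. The list's median log2 fold change was -0.05, against 0.02 over all genes. Trem2, the receptor, was at 2128, 2007 and 2248 CPM in the compound mutant and 1959, 2411 and 2336 CPM in the controls, with overlapping groups (log2 fold change -0.07, SE 0.114, adjusted p = 0.861, edgeR). Syk (0.41), Plcg2 (-0.11), Btk (0.26) and the phosphatase gene Ptpn6 (-0.02) did not pass, and neither did Dok3 (1.26, adjusted p = 0.0601), an adaptor of inhibitory signalling. DESeq2 called 2 of the 24 genes higher and 2 lower.

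Hcst encodes DAP10, the second adaptor of this receptor family, and lies directly beside Tyrobp (chr7:30417712-30419854), starting 127 bases after its end. Its level was 4.62, 12.4 and 6.09 CPM in the compound libraries and 31.8, 45.2 and 55.4 CPM in the controls, with every compound library below every control (log2 fold change -2.51, SE 0.355, adjusted p = 0.0125, edgeR). Among 18 tested receptors that couple to DAP12, 1 fell and none rose. This was Cd200r4, an activating member of the CD200 receptor family, at 6.25, 10.8 and 8.81 CPM against 43.6, 31.4 and 62.5 CPM (log2 fold change -2.41, SE 0.431, adjusted p = 0.0359). The list's median was 0.83, and 11 of its 18 members were highest in compound replicate 2, the library with most neutrophil RNA. The share over all tested genes was not computed, and a link to neutrophil RNA was not tested. Klrk1, the NKG2D receptor gene, had 1.24, 3.96 and 1.63 CPM against 0, 0.0804 and 0 CPM and did not pass (adjusted p = 0.0601).

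The second-stage DAM genes were the group with the most decreases. Of 30 tested members 22 fell, against 0.633% of all genes, and none rose. The list's median log2 fold change was -2.07, and all 30 members were below 0. Of the 8 that did not pass, Dkk2 (-6.31, adjusted p = 0.0558), Lox (-3.94, 0.0751) and Cd52 (-0.83, 0.0889) came closest to the threshold. The count was 13 with the neutrophil covariate, where the list's median was -2.17, and it was 16 without compound replicate 1, 16 without compound replicate 2 and 26 without compound replicate 3. The list was written with earlier results of these data known, so its count is no independent evidence of direction.

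Of 31 tested genes of secreted and matrix proteins 6 fell and 1 rose, with 20 values below 0, 11 above and a median of -0.40. Several second-stage DAM genes are also secreted. Spp1, which encodes osteopontin (chr5:104435118-104441050), was at 25.5, 34.5 and 44.1 CPM in the compound libraries and 548, 613 and 601 CPM in the controls. All compound libraries were far below all controls (log2 fold change -4.08, SE 0.225, adjusted p = 7.63e-05, edgeR). Its exons overlap those of the predicted gene model Gm42793 on the same strand, which also fell, and reads in the shared exons cannot be told apart. Igf1, a growth factor that microglia make near plaques, was at 7.29, 21 and 15.3 CPM against 133, 118 and 107 CPM (log2 fold change -3.04, SE 0.334, adjusted p = 0.0037). Cst7, which encodes the protease inhibitor cystatin F, went from 737, 891 and 1045 CPM to 91.6, 84.6 and 162 CPM, with compound replicate 3 the highest of its group (log2 fold change -2.98, SE 0.253, adjusted p = 0.00118). Csf1, the ligand of the receptor on which microglia depend, stood at 31.5, 29.1 and 39.4 CPM against 101, 133 and 131 CPM (log2 fold change -1.87, SE 0.206, adjusted p = 0.0037).

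Membrane and surface genes of this set fell as well. Gpnmb, a lysosomal and surface glycoprotein, was close to the detection floor in the compound mutant at 0.0377, 0.0318 and 0.0804 CPM, against 39.4, 56.3 and 60.7 CPM in the controls. This was 8 counts in all against 6841 counts, or a 1022-fold lower fitted level (SE 1.05 on the log2 scale, adjusted p = 0.003, edgeR). Itgax, which encodes the integrin CD11c, was at 7.7, 20.5 and 42.2 CPM against 152, 183 and 155 CPM (log2 fold change -2.80, SE 0.486, adjusted p = 0.031). Its compound libraries did not reach the controls, but the gene passed in 2 of the 11 fits with a library left out and did not pass with the neutrophil covariate (adjusted p = 0.231). Clec7a, the beta-glucan receptor Dectin-1, went to 181, 194 and 320.4 CPM from 574, 714 and 769 CPM and lay at the threshold (log2 fold change -1.57, SE 0.302, adjusted p = 0.0499). Axl, a receptor for apoptotic cells, was at 47.3, 48.7 and 244 CPM against 503, 589 and 662 CPM and did not pass (log2 fold change -2.37, SE 0.61, adjusted p = 0.135), with compound replicate 3 far above the other two. Cd9, a tetraspanin often used as a DAM marker, was at 4222, 3637 and 3988 CPM against 3607, 4739 and 4329 CPM, with overlapping groups (log2 fold change -0.10, SE 0.116, adjusted p = 0.793).

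Lipid and transport genes of the set included Lpl, the lipoprotein lipase, at 35.4, 48 and 105 CPM against 389, 325 and 464 CPM (log2 fold change -2.64, SE 0.362, adjusted p = 0.011, edgeR). Fabp5, a fatty acid carrier, was at 9.42, 9.65 and 7.5 CPM against 84, 98.2 and 107 CPM (log2 fold change -3.45, SE 0.326, adjusted p = 0.00185). The pyrophosphate transporter gene Ank fell to 15.1% of its control mean (102, 139 and 177 CPM against 829, 911 and 1021 CPM, adjusted p = 0.000303). Each of these 3 genes had compound libraries entirely below the controls. The plot of DAM genes by library shows the 22 members that fell, ordered by fold change.

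**Figure D2:**
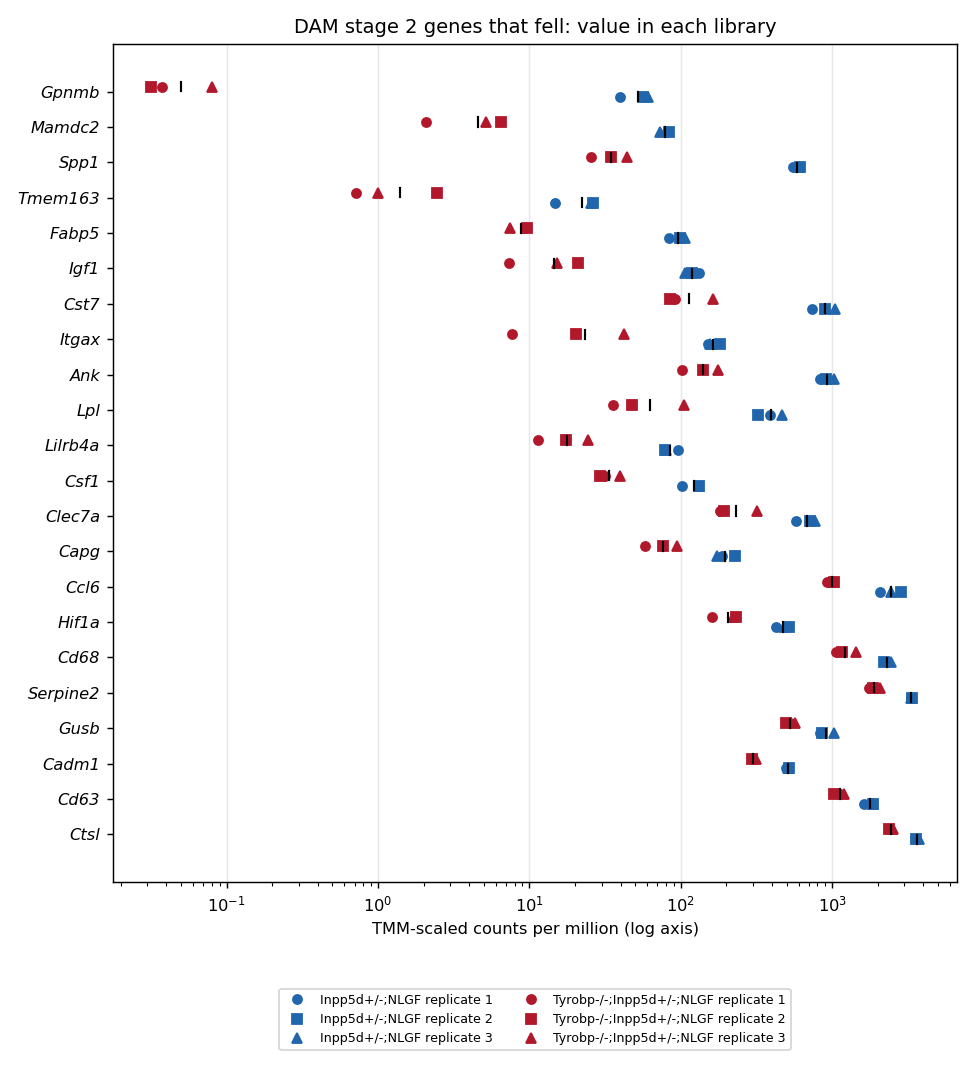
Levels of the 22 second-stage DAM genes that passed, in each of the 6 libraries (x axis, TMM-scaled CPM, log scale), with a black bar at each group's mean and 1 marker shape per replicate. Red compound libraries lie left of all blue Inpp5d+/-;NLGF libraries for every gene, from Gpnmb at the top (below 0.1 CPM) to Ctsl at the bottom.

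Within the compound group the libraries were not equal. For 22 of the 30 second-stage genes compound replicate 3 was the highest of its group, for 7 it was replicate 2 and for 1 replicate 1. Among all 129 lower genes the numbers were 75, 36 and 18. Compound replicate 1 was thus lowest or middle for most of them. Such numbers were not computed over all tested genes. Replicate 1 was also the library with most neuron RNA, and a link was not tested. The list's median of -2.07 was -1.91, -1.89 and -2.28 without compound replicate 1, 2 or 3.

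Of 10 first-stage DAM genes 3 fell and none rose, with a median of -0.50. The 3 were Ctsb and Ctsz, both cathepsins, and the deleted gene. Apoe, the main lipid carrier of glia, was at 97.7, 201 and 172 CPM against 251, 280.1 and 423 CPM, and did not pass although the groups did not overlap (log2 fold change -1.02, SE 0.277, adjusted p = 0.151, edgeR). B2m (-0.43) and Fth1 (-0.58, adjusted p = 0.0889) did not pass either. Lyz2 had the highest value of the list (2.09, adjusted p = 0.202), and it is also an abundant transcript of monocytes and neutrophils.

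Some lysosomal genes fell. Among 13 cathepsin genes 4 fell and none rose (median -0.31). Ctsb, a cysteine protease, was at 5211, 5202 and 6563 CPM against 8898, 7721 and 8623 CPM (log2 fold change -0.57, SE 0.0914, adjusted p = 0.0214, edgeR). Ctsl was at 2404, 2359 and 2537 CPM against 3605, 3597 and 3749 CPM, the tightest of the 4 (log2 fold change -0.58, SE 0.0586, adjusted p = 0.00251). Ctsz was at 1934, 1851 and 2391 CPM against 2849, 3189 and 3479 CPM (log2 fold change -0.62, SE 0.105, adjusted p = 0.0268), and every library of these 3 genes was below every control. Ctse, a low-level aspartic protease gene, went from 15.1, 13.2 and 16.4 CPM to 0.226, 1.48 and 2.05 CPM (log2 fold change -3.57, SE 0.684, adjusted p = 0.0487). Ctsd, the main aspartic protease of the lysosome, lay just outside the threshold (log2 fold change -0.31, SE 0.0624, adjusted p = 0.0591). The protein-coding row Gm49369, whose exons overlap those of Ctsd, did pass (log2 fold change -0.36, SE 0.0655, adjusted p = 0.0388), and reads in the shared exons cannot be separated.

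Of 39 other lysosomal enzymes and membrane proteins, 4 fell and none rose (median -0.24). Besides Gpnmb these were Cd68, Gusb and Cd63. Cd68, a glycoprotein of phagocyte endosomes, was at 1068, 1161 and 1435 CPM against 2289.8, 2193 and 2439 CPM (log2 fold change -0.92, SE 0.139, adjusted p = 0.0178). Gusb, which encodes beta-glucuronidase, was at 524, 496 and 566 CPM against 837, 858 and 1024 CPM (log2 fold change -0.78, SE 0.104, adjusted p = 0.0106). The membrane proteins Lamp1 (-0.24) and Lamp2 (-0.13), the cholesterol exporter Npc1 (-0.12) and the progranulin gene Grn (-0.58, adjusted p = 0.15) did not pass. None of 18 tested subunits of the vacuolar proton pump passed in edgeR (6 had an unadjusted p under 0.05, DESeq2 called 1 and limma-voom none), with a median of -0.02. The count of 8 lower genes over both lists was 3 and 4 without compound replicate 1 or 2, and 5 and 4 without Inpp5d+/-;NLGF replicate 2 or 3. With the neutrophil covariate it was 2, while the median over both lists went from -0.24 to -0.30.

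Sterol genes formed a second group of decreases. Cholesterol is made from acetyl-CoA through the mevalonate pathway, and the transcription factor SREBP2, encoded by Srebf2, turns these genes on when sterols in the endoplasmic reticulum run low. Of 20 synthesis enzymes 5 fell (Hmgcs1, Sqle, Cyp51, Msmo1 and Dhcr7), and of 11 genes of SREBP control and sterol uptake 4 fell, among them Srebf2, Insig1 and Stard4. None of the 31 rose, and the medians were -0.88 and -0.44. Of the 20 enzymes 17 had values below 0 and 3 above.

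Hmgcs1, the first committed step, was at 22.2, 26.1 and 24.7 CPM in the compound libraries and 51.9, 41 and 49.3 CPM in the controls (log2 fold change -0.96, SE 0.135, adjusted p = 0.0121, edgeR). Msmo1, a sterol demethylation enzyme, was at 116, 105 and 80.9 CPM against 192, 217 and 191 CPM (log2 fold change -0.99, SE 0.144, adjusted p = 0.0145). Sqle, which makes the first oxygenated sterol precursor, was at 4.22, 1.99 and 4.26 CPM against 10.5, 20.4 and 30.8 CPM (log2 fold change -2.56, SE 0.436, adjusted p = 0.0294). In none of these did a compound library reach a control. Idi1, which isomerises the isoprenoid building block, was at 3.48, 11.4 and 9.89 CPM against 18.8, 26.6 and 22.9 CPM and did not pass (log2 fold change -1.46, SE 0.443, adjusted p = 0.191). Fdft1 (-0.75, adjusted p = 0.0621), Sc5d (-1.14, 0.0751) and Fdps (-1.14, 0.08) lay just outside the threshold. The exons of Fdft1 overlap those of Ctsb, which fell, so reads in the shared part cannot be told apart.

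Among the regulators, Insig1, which holds SREBP in the endoplasmic reticulum and is itself an SREBP target, was at 20.3, 32 and 19.6 CPM against 55.1, 65 and 76 CPM (log2 fold change -1.45, SE 0.217, adjusted p = 0.0169, edgeR). Srebf2 was at 27.4, 25.8 and 23.8 CPM against 61.1, 48.8 and 75.8 CPM (log2 fold change -1.27, SE 0.194, adjusted p = 0.0182). Stard4, which carries sterols between membranes, was at 0.81, 2.52 and 3.38 CPM against 10.7, 14.4 and 13.5 CPM (log2 fold change -2.53, SE 0.468, adjusted p = 0.0415). The compound libraries lay below the controls for each of the 3. Srebf1, which acts mainly on fatty acid genes, did not pass (-0.34, adjusted p = 0.621).

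The sequences upstream of the sterol genes that fell are shown for 4 of them, since SREBP is known to bind next to NF-Y, a factor that recognises CCAAT. Each line is the 250 bases before an annotated start (RefSeq, GRCm38.p6), read 5′ to 3′ on the strand of the gene, with capitals marking CCAAT or its reverse complement ATTGG and, in Hmgcs1, the sterol element letters TCACNCCAC. The windows are chr13:119690101-119690350, plus strand (Hmgcs1); chr8:64733579-64733828, minus strand (Msmo1); chr5:28071162-28071411, plus strand (Insig1); and chr15:82147019-82147268, plus strand (Srebf2).
Hmgcs1 promoter: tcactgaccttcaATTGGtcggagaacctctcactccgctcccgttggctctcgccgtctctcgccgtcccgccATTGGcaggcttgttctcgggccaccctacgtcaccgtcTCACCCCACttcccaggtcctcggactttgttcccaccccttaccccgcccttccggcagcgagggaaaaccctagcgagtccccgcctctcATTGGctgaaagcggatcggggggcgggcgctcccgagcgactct
Msmo1 promoter: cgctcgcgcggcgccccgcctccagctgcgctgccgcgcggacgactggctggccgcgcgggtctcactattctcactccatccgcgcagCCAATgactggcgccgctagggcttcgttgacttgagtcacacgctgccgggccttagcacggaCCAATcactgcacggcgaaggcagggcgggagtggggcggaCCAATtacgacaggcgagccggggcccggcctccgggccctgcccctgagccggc
Insig1 promoter: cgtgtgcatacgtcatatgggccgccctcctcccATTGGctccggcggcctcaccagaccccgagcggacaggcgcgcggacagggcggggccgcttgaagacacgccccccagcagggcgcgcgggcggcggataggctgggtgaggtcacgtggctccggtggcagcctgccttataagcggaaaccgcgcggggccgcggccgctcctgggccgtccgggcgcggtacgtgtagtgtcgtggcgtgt
Srebf2 promoter: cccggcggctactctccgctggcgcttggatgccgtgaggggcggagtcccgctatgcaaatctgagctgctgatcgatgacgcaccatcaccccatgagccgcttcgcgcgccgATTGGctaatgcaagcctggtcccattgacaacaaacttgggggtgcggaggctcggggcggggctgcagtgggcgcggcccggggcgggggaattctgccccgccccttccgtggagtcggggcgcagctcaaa
CCAAT was searched on both strands, and no base of these windows fell in 2 motifs. Of the 9 sterol genes that fell, 6 had a window in the RefSeq table and all 6 held CCAAT. In the full set of 32 listed sterol genes it was 20 of 24 with a window (83.3%), against 40.2% of the 11828 tested genes with one. TCACNCCAC was in 1 of the 6, Hmgcs1, where it starts at position -137 from the start site, and in 1.25% of all genes. The E-box CACGTG was in 2 of the 6, Insig1 and Dhcr7, and in 9.59% of all genes. Among 17 second-stage DAM genes that fell and had a window, CCAAT was in 7 (41.2%), close to the share over all genes. These are matches of letters, not measured binding sites.

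Neighbouring lipid genes changed too. Scd2, a fatty acid desaturase and SREBP target, was at 72.5, 60.2 and 55.7 CPM against 184, 241 and 281 CPM (log2 fold change -1.91, SE 0.176, adjusted p = 0.00171, edgeR), and was called in each of the 11 fits with a library left out. Scarb1, a receptor for HDL, was at 68.8, 73.9 and 70.5 CPM against 140.2, 175 and 171 CPM (log2 fold change -1.19, SE 0.162, adjusted p = 0.0109). Nceh1, which hydrolyses cholesterol esters, was at 71, 63.9 and 87 CPM against 167, 163 and 175 CPM (log2 fold change -1.18, SE 0.161, adjusted p = 0.0109). These 2 were the members that fell among 15 genes of cholesterol efflux and LXR targets, where none rose and the median was -0.47. DESeq2 called 6 of the 15 lower and 1 higher. Neither passed with the neutrophil covariate, where the log2 fold changes were -1.14 for Scarb1 (adjusted p = 0.129) and -1.22 for Nceh1 (adjusted p = 0.101). Abca1 (0.27) and Abcg1 (0.50) did not pass. Lpcat2, which remodels phospholipids, was the 1 of 29 fatty acid and lipid droplet genes that rose (log2 fold change 0.55, SE 0.0684, adjusted p = 0.0065), while Fabp5, Scd2 and Lpl fell. The exons of Lpcat2 overlap those of Gm45472, which also rose, and reads in the shared part cannot be told apart.

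The sterol count was sensitive to single libraries. The 9 lower genes over both sterol lists were 2, 3 and 5 without compound replicate 1, 2 or 3, and 2 and 1 without Inpp5d+/-;NLGF replicate 2 or 3. With the neutrophil covariate 2 passed, Insig1 and an enzyme that was not among the 9, and without the libraries with most S100a8 2 passed, Insig1 among them. The median log2 fold change over both lists was -0.75 with all libraries, -0.86 with the covariate and -0.94 without the libraries with most S100a8. It was -0.69, -0.94 and -0.74 without compound replicate 1, 2 or 3. Without Inpp5d+/-;NLGF replicate 1, 2 or 3 it was -0.68, -0.63 and -0.81. The value of each of the 9 kept its sign throughout.

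**Figure D3:**
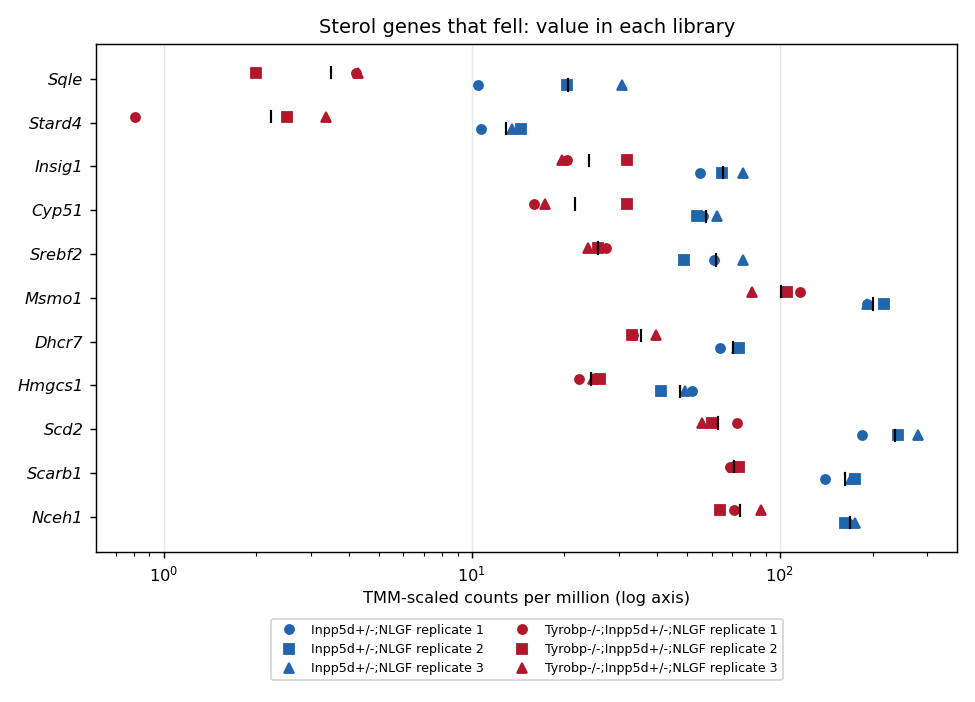
Levels of 8 of the sterol genes that fell and of Scd2, Scarb1 and Nceh1 in each library (x axis, TMM-scaled CPM, log scale), with a black bar at each group's mean. Red compound libraries lie left of the blue Inpp5d+/-;NLGF libraries in all 11 genes, and the gap between the nearest libraries of both groups is narrowest in Hmgcs1.

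Several regulators of transcription and metabolism fell. Bhlhe40, a repressor that controls lysosomal and lipid genes in macrophages, was at 2.49, 4.86 and 4.93 CPM against 81.1, 72.6 and 91.1 CPM (log2 fold change -4.32, SE 0.381, adjusted p = 0.00139, edgeR). Its compound libraries held about 5.01% of the control level, and the antisense row 0610040F04Rik, which shares its exons, fell alike. Of the 10 tested genes on its list, with Tfeb (0.48) and Usf1 (0.49), it was the only one that passed. Hif1a, the oxygen-regulated factor that raises glycolysis, was at 160.3, 232.9 and 222.8 CPM against 428, 519.7 and 479.9 CPM (log2 fold change -1.21, SE 0.142, adjusted p = 0.00525). Its exons overlap those of Gm15283 and Snapc1l, which fell too, so that its reads are uncertain. Hif1a was the only 1 of 26 glycolysis and glucose transport genes to pass, with a list median of -0.31; Pkm (-0.80, adjusted p = 0.102) and Gapdh (-0.43, 0.168) did not. Egln3, a hydroxylase that is a known HIF target, fell from 37.8 ± 14.6 CPM to 7.42 ± 1.06 CPM (SD, n = 3, adjusted p = 0.00818). Psat1, an enzyme of serine synthesis, was at 130.3, 128 and 112 CPM against 249, 240.4 and 278 CPM (log2 fold change -1.05, SE 0.106, adjusted p = 0.00251).

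No gene of oxidative phosphorylation (36 tested, 6 with an unadjusted p under 0.05, median -0.07) or of the cytosolic ribosome (54 tested, 11 with an unadjusted p under 0.05, median -0.14) passed in edgeR. DESeq2 called 2 and 6 of them lower, and limma-voom none. Of 13 iron genes, the transporters Slc11a1 and Slc11a2 fell (-0.71 and -0.77). Slc11a1, which pumps metal ions out of the phagosome, was at 579.8, 513 and 659.6 CPM against 868, 1035 and 957 CPM (adjusted p = 0.0143).

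Homeostatic genes rose in a few cases. Of 30 tested, 4 rose (0.265% of all genes rose) and none fell, and the median was 0.14. Tmem119, a surface marker of resting microglia, was at 5669, 5171 and 5085 CPM in the compound libraries and 3039.8, 3437 and 3619 CPM in the controls (log2 fold change 0.66, SE 0.0758, adjusted p = 0.00493, edgeR). Sparc, a secreted matrix protein, was at 4168, 4011 and 4265 CPM against 2801, 3069.8 and 3158 CPM (log2 fold change 0.46, SE 0.063, adjusted p = 0.0109). Crybb1, a crystallin gene used as a marker of mature microglia, was at 272, 243 and 229 CPM against 107, 100.3 and 83 CPM (log2 fold change 1.36, SE 0.19, adjusted p = 0.0121). For these 3 genes, as for Ltc4s, a leukotriene synthase (log2 fold change 0.57, SE 0.104, adjusted p = 0.0389), all compound libraries were above all controls.

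Other markers of the resting state were near 0. P2ry12 (0.15), Cx3cr1 (0.03) and Siglech (0.09) did not pass. Tgfbr2, a receptor for TGF-beta, had the lowest fold change of the list, at 413, 642 and 686 CPM against 1003, 994 and 997 CPM (adjusted p = 0.0743). The count of 4 higher genes was 1 without compound replicate 1, 2 without Inpp5d+/-;NLGF replicate 2 or 3, and 1, Tmem119, with the neutrophil covariate, where the list's median was 0.19. The neuron sum was highest in compound replicate 1, and 17 of the 30 homeostatic genes were highest in that library of the compound group. This share was not computed over all tested genes, and a link to neuron RNA was not tested.

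**Figure D4:**
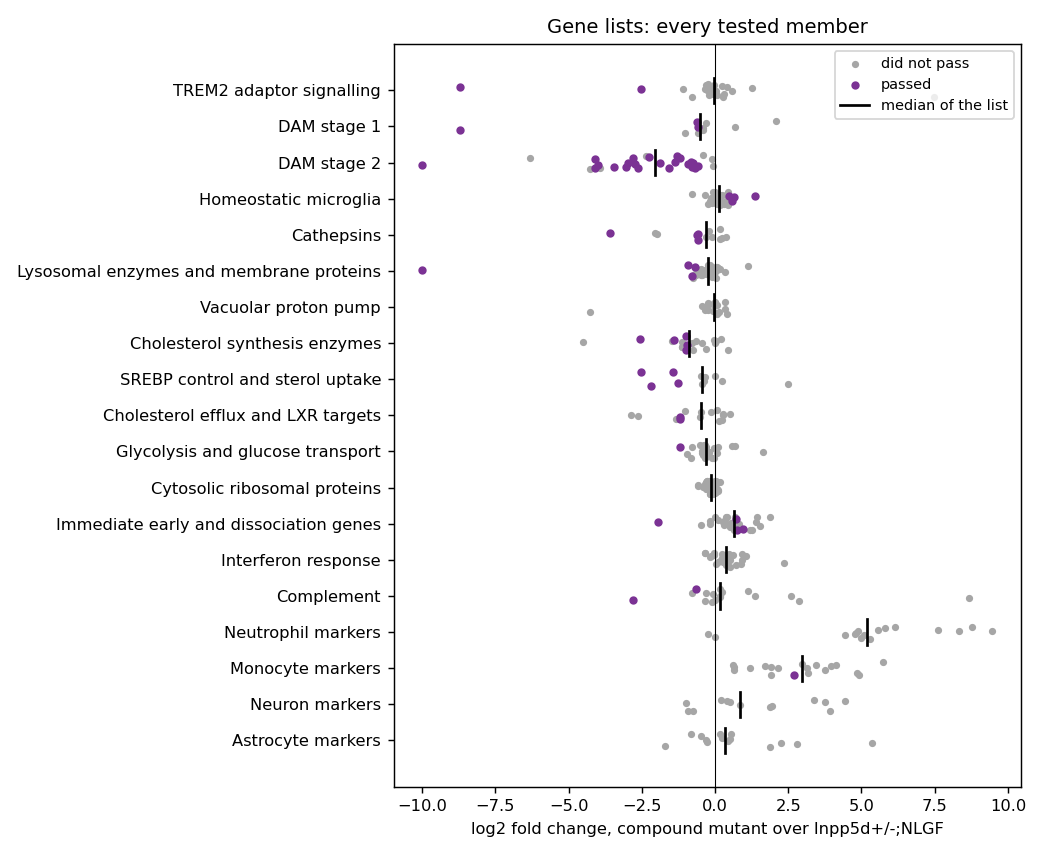
Log2 fold change in the compound mutant over Inpp5d+/-;NLGF (x axis) for every tested member of 19 gene lists (y axis). Purple points passed, grey points did not, and the black bar is the list's median, which is -2.07 for the second DAM stage, -0.88 for cholesterol synthesis and 5.19 for neutrophil markers, none of which passed singly.

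Genes of immediate response rose in part. Of 31 immediate early genes and genes known to respond to tissue dissociation, Junb, Ier5 and Atf3 rose and Egr2 fell, and the median was 0.64. Junb, an AP-1 subunit, was at 540.0, 603 and 644 CPM against 322, 257 and 333 CPM (log2 fold change 0.97, SE 0.134, adjusted p = 0.011, edgeR). Egr2, a factor that responds to growth factor and Csf2 signals, was at 13.2, 8.82 and 16.5 CPM against 38.8, 41.8 and 67.3 CPM (log2 fold change -1.94, SE 0.315, adjusted p = 0.0231). Fos (1.89, adjusted p = 0.101), Egr1 (1.26, 0.144) and Jun (0.75, 0.206) did not pass. No member was called higher with the neutrophil covariate or without the libraries with most S100a8, and 1 was without compound replicate 1 or 2, or without Inpp5d+/-;NLGF replicate 1 or 2. With the covariate Junb had a log2 fold change of 0.94 and Ier5 one of 0.76, and the list's median was 0.68; without the libraries with most S100a8 the median was 0.57. Of the 31 members 27 had positive values. Within the compound group 6, 13 and 12 members were highest in replicate 1, 2 and 3. The neutrophil sums of these libraries were 496, 10253 and 2660 CPM, and a link was not tested.

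Socs3, the feedback inhibitor of JAK and STAT3 signalling, had the largest increase among called genes with a mean above 50 CPM in both groups, at 192, 224 and 229 CPM against 68.6, 38.5 and 60.5 CPM (log2 fold change 1.95, SE 0.216, adjusted p = 0.00384, edgeR). It passed with the neutrophil covariate and in each of the 11 fits with a library left out. Among 24 tested genes of STAT3 signalling and its feedback, Socs3 was the only one that rose and Csf2ra, the receptor subunit for GM-CSF, the only one that fell (33.4, 30.8 and 41.6 CPM against 67.5, 70.4 and 80.9 CPM, log2 fold change -1.05, SE 0.146, adjusted p = 0.0117). Socs2 (-2.51, adjusted p = 0.191) did not pass.

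Few inflammatory genes passed. Casp1, the protease of the inflammasome, rose from 31.4, 31 and 37.9 CPM to 58.8, 54.9 and 69.9 CPM (log2 fold change 0.87, SE 0.146, adjusted p = 0.0268, edgeR) and was the only 1 of 17 tested cytokine and inflammasome genes to pass. Tnf (1.54, adjusted p = 0.135), Il1a (1.03, 0.168) and Il1b (0.37, 0.889) did not. Of 17 chemokine genes Ccl6, which attracts myeloid cells, fell from 2070.2, 2839 and 2452 CPM to 927, 1033 and 1014 CPM (log2 fold change -1.31, SE 0.108, adjusted p = 0.00118), and none rose. Ccl3 (-0.74, adjusted p = 0.0884) and Ccl12 (0.91, 0.08) lay on either side of 0.

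None of the 26 interferon response genes passed in edgeR (5 had an unadjusted p under 0.05, median 0.37; DESeq2 called 1 higher and limma-voom none). Outside that list, the interferon-inducible GTPase genes Ifi47 and Igtp rose. Ifi47 was at 6.4, 15.2 and 10.9 CPM against 2.54, 1.53 and 2.02 CPM (log2 fold change 2.42, SE 0.449, adjusted p = 0.042). No gene of MHC class I (17 tested, 4 with an unadjusted p under 0.05) or class II presentation (11 tested, 1) passed in edgeR, while DESeq2 called 2 and 1 and limma-voom none. Of 16 Toll-like receptor and adaptor genes none passed in edgeR or limma-voom, 3 had an unadjusted p under 0.05 and DESeq2 called 1 higher.

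Single surface receptors moved in either direction. Fcgr1, the high-affinity receptor for IgG, rose from 352, 332 and 364 CPM to 551, 460.4 and 501 CPM (log2 fold change 0.53, SE 0.0904, adjusted p = 0.0294, edgeR) and was the only 1 of 8 Fc receptor genes to pass. Lilrb4a, an inhibitory receptor, was at 11.3, 17.5 and 24.3 CPM against 96.3, 78.6 and 80.5 CPM (log2 fold change -2.26, SE 0.359, adjusted p = 0.0207), and its reads can be shared with overlapping rows and near-identical family members. Siglecf, a sialic acid receptor, fell by less (log2 fold change -1.13, SE 0.179, adjusted p = 0.0207). Of 17 tested complement genes and receptors, 2 fell, Itgax among them, and none rose. None passed with the neutrophil covariate, where 3 had an unadjusted p under 0.05.

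Among genes linked to risk of Alzheimer's disease, 43 were tested, 3 fell and 1 rose. None passed with the neutrophil covariate or without the libraries with most S100a8, where 12 had an unadjusted p under 0.05 in either fit, and DESeq2 called 6 lower and 4 higher. Ctsb, Lilrb4a and Ephx1 fell and Ms4a6b rose. Ms4a6b, a membrane protein of myeloid cells, was at 176, 170.2 and 131 CPM against 99.1, 81.4 and 66.1 CPM and lay at the threshold (log2 fold change 0.95, SE 0.183, adjusted p = 0.0497). App itself was at 71.7, 80.0 and 83.8 CPM against 104, 68.6 and 108 CPM, with overlapping groups (log2 fold change -0.25, SE 0.172, adjusted p = 0.562, edgeR). Some other genes with a known tie to amyloid fell, and they were picked after their values were seen: the App relative Aplp2 (127 ± 11.2 CPM against 391 ± 5.03 CPM, SD, n = 3, log2 fold change -1.62, adjusted p = 0.00118), the prion protein gene Prnp (-2.36, adjusted p = 0.0143) and the App-binding adaptor gene Apbb2 (-1.20, 0.0378).

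The largest decreases among genes of at least 5 CPM, beside those named, included genes at very low levels in the compound mutant. Tcap, a small protein best known from muscle, was at 0, 0.0318 and 0.302 CPM against 7.48, 8.74 and 5.7 CPM (log2 fold change -6.04, SE 1.04, adjusted p = 0.0299, edgeR). Postn, the matrix protein periostin, was at 0.32, 0.0796 and 0.684 CPM against 11.4, 5.51 and 6.57 CPM (log2 fold change -4.44, SE 0.72, adjusted p = 0.0227). Ldlrad3, a membrane protein, was at 0.735, 0.525 and 2.67 CPM against 20.3, 29.5 and 24.9 CPM (log2 fold change -4.25, SE 0.59, adjusted p = 0.0115). Compound libraries were below controls for each of them.

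Colec12, a scavenger receptor, had 2 counts in all compound libraries together and 651 in the controls, a ratio of 404 with a 95% counting interval of 111 to 3344. Its control libraries themselves ran over a wide range, at 5.68, 0.522 and 9.99 CPM. Hs3st1, a heparan sulphate sulphotransferase gene, had 0 counts in the compound mutant and 446 in the controls and was at least 65.2-fold lower, taking a floor of 3 counts per library. Slc25a24, a mitochondrial carrier gene, was the reverse, with 530 counts in the compound libraries and 1 in the controls. These intervals and floors cover counting error only.

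Increases among genes of at least 5 CPM were led by 2 genes within 10 Mb of Tyrobp, though not directly beside it. Fxyd3, a regulator of the sodium pump (chr7:31068172-31076704), was at 12.8, 6.99 and 9.11 CPM against 0.736, 0.824 and 0.403 CPM (log2 fold change 3.87, SE 0.391, adjusted p = 0.00251, edgeR). Lgi4, a secreted protein known from Schwann cells (chr7:31059342-31070935), was at 25.1, 14.3 and 19.5 CPM against 1.45, 1.99 and 0.72 CPM (log2 fold change 3.81, SE 0.415, adjusted p = 0.0037). Both ran above the controls in every compound library. Their exons overlap in part, and reads in the shared part cannot be told apart. How many reads fell there was not measured. Within 10 Mb of Tyrobp 7 of 294 tested genes passed (2.38%, against 0.897% of all genes): Tyrobp, Hcst and Plaur fell, and Fxyd3, Lgi4, Gmfg and Blvrb rose.

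S100a10, a calcium-binding protein, rose from 4.35, 2.45 and 1.01 CPM to 18.8, 19.4 and 12.8 CPM (SE 0.483 on the log2 scale, adjusted p = 0.0359, edgeR). It is on the monocyte list, of which it was the only 1 of 19 members to pass, and that list summed to 181 to 1611 CPM against 29.9 to 108 CPM. All 19 monocyte markers had positive values (median 2.96). S100a10 was not called with the neutrophil covariate. Enox2 (log2 fold change 2.15, SE 0.385, adjusted p = 0.0359), Dph7 (log2 fold change 1.43, SE 0.256, adjusted p = 0.0361) and the adaptor gene Grap (log2 fold change 1.39, SE 0.16, adjusted p = 0.00494) rose without being on a list of another cell type. Grap, which links receptors to Ras signalling, was at 57.4, 54.4 and 60.7 CPM against 22.4, 25.4 and 18.3 CPM, with no overlap.

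None of 16 neutrophil markers passed in edgeR, with a median of 5.19 and compound replicate 1 near the controls. Unadjusted, 14 had p under 0.05, DESeq2 called 5 higher and limma-voom none. Of the 54 genes that rose, 6 (11.1%) followed the order of S100a8 across the compound libraries, with replicate 2 above 3 above 1. Over all tested genes this order held for 17.2%. Genes that vary widely within a group rarely pass, so these shares do not measure what other cells contributed to the rises. No neuron marker (13 tested, 0 with an unadjusted p under 0.05) or astrocyte marker (14 tested, 1) passed in edgeR, DESeq2 or limma-voom.

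The Tyrobp difference was then compared between both Inpp5d backgrounds, that is, with the difference between Tyrobp-/-;NLGF and NLGF. The comparisons share no library, but they come from 1 model with a shared estimate of spread, and the running numbers of the titles separate the Tyrobp genotypes here too. No gene passed for the difference between them in edgeR (0%), with a smallest adjusted p of 0.0779 and 958 genes (4.70%) with an unadjusted p under 0.05. DESeq2 called 36 genes and limma-voom none. Of the genes called on the Inpp5d+/- background, all 54 higher ones and 127 of 129 lower ones had the same sign with both Inpp5d copies, against 63.4% of all tested genes. Their medians there were 0.72 and -1.34. The exceptions were Vangl2, a planar polarity gene (-1.77 here and 0.01 there), and the death-promoting gene Bcl2l11 (-0.65 and 0.19). RNA of other cells differed with both Inpp5d copies too. The 16 neutrophil markers summed to 19581 and 4742 CPM in Tyrobp-/-;NLGF and to 364, 479 and 438 CPM in NLGF. The median log2 fold change there was 6.97 for neutrophil and 4.95 for monocyte markers. With the neutrophil covariate no gene passed for the difference between backgrounds. How much other cells add to the shared signs was not tested.

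**Figure D5:**
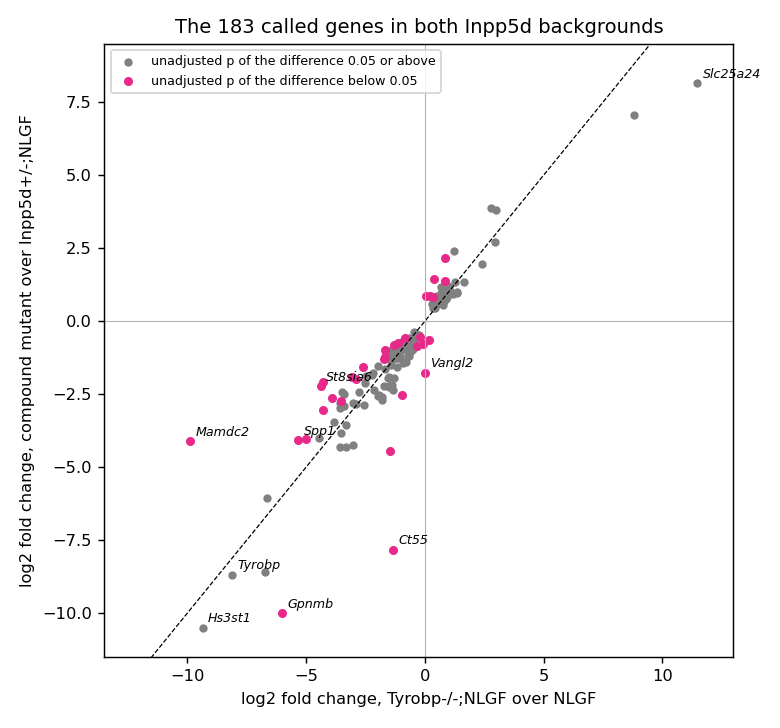
Log2 fold change of the 183 called genes with both Inpp5d copies (x axis, Tyrobp-/-;NLGF over NLGF) and on the Inpp5d+/- background (y axis). The dashed line marks equal values; pink points are the 32 genes with an unadjusted p of the difference under 0.05, and no gene passed after adjustment.

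Among second-stage DAM genes the decrease was smaller on the Inpp5d+/- background for 24 of 30 members, with medians of -2.07 and -2.55. Unadjusted, 14 of the 30 had a p of the difference under 0.05, and in 13 of these the decrease was the smaller one. Over the 183 called genes 32 had such a p (17.5%). Mamdc2, a secreted matrix gene, came closest to passing: it was at 2.07, 6.51 and 5.19 CPM in the compound mutant against 80.9, 84 and 72.6 CPM in Inpp5d+/-;NLGF, and at 0.0996 and 0.074 CPM in Tyrobp-/-;NLGF against 96.6, 83.7 and 70.2 CPM in NLGF. The difference between the log2 fold changes was 5.77 (SE 0.675, adjusted p = 0.0779, edgeR). Spp1 was at 25.5, 34.5 and 44.1 CPM in the compound mutant and 11.5 and 15.9 CPM in Tyrobp-/-;NLGF, against 548, 613 and 601 CPM and 646, 502 and 499 CPM in their controls (difference 1.25, SE 0.303, unadjusted p = 0.00221). Gpnmb was the 1 of the 14 that went the other way, with a larger decrease on the Inpp5d+/- background (difference -3.97, SE 1.32, unadjusted p = 0.0136); its level was 1.45 and 0.0185 CPM in Tyrobp-/-;NLGF, so the pair there was uneven. Compound replicate 3 was the highest of its group for 22 of the 30 genes, and 1 gene, Mamdc2, passed for the difference when compound replicate 1 was left out.

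Other genes with a small p for the difference were found at low and at high levels. Serpine2 had means of 1894 CPM in the compound mutant and 3329 CPM in Inpp5d+/-;NLGF. Its log2 fold change was -0.81 here and -1.29 there (unadjusted p of the difference = 0.00355, edgeR). Casp1, which rose here (0.87), had 0.05 there (unadjusted p = 0.00389, edgeR). Fzd9, a Wnt receptor, was at 2.39, 2.09 and 1.33 CPM in the compound mutant and 2.06, 2.13 and 3.8 CPM in Inpp5d+/-;NLGF, but at 0 and 0 CPM in Tyrobp-/-;NLGF and 3.25, 6.74 and 3.66 CPM in NLGF (adjusted p of the difference = 0.0779, edgeR). Srxn1, an antioxidant enzyme gene, had a log2 fold change of 1.22 here and -1.49 there (unadjusted p = 0.000447). Ct55, at 0, 0.0159 and 0 CPM against 1.51, 2.79 and 1.35 CPM, was called here (-7.83) and had -1.34 there (unadjusted p = 0.00018). Of 11 genes of SREBP control, 3 had a positive difference. The sterol carrier gene Stard4 had -2.53 here and -0.98 there (unadjusted p = 0.0416), and the list's medians were -0.44 and -0.12. None of these differences passed after adjustment.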

How the data were processed

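RNA of sorted mouse microglia was measured in 11 libraries, made with the SMART-Seq v4 kit per the labels' protocols, a full-length method that does not mark strand. The authors deposited whole-number read counts per gene, with no normalisation; STAR 2.7.3a, featureCounts 1.6.4 and the builds GRCm38.p6 and mm10 are named per the submitters' processing notes. Strand setting, annotation release and handling of multi-mapped reads: not given in the sources used here. Rows with shared exons (70 of the 183 called genes overlap another row, 28 another called row) and gene families are therefore uncertain. The 37 mitochondrial rows were 0 in every library.

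Groups follow the genotype label, and replicate numbers are the sample order and pair nothing. Genes were kept with filterByExpr (minimum count 10, minimum total 15) and scaled by TMM. One edgeR 4.0.16 quasi-likelihood model (R 4.3.3) with 1 coefficient per group was fitted over all 11 libraries, which gives a shared spread. P-values were adjusted by Benjamini-Hochberg over the 20390 tested genes, with a threshold of 0.05, and SE is that of the log2 fold change, from the test statistic. The standard error had a median of 0.24 over the 10870 genes with a mean of at least 5 CPM. The script was tested on simulated data. No 2 libraries held identical counts.

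The comparison, the 50 gene lists and the genes named were chosen with earlier results of these data known, so list counts are descriptions beside the share over all genes. Named were Tyrobp, Inpp5d, Trem2, App, Hcst and Apoe; the 10 most increased and 10 most decreased called genes (fewer where not available) with at least 5 CPM, no overlap and a named symbol; the 8 called genes with the highest CPM; up to 4 genes with the smallest p per list and for the difference between backgrounds; and S100a8, Snap25 and Gfap. Other list members and a few called genes are given because a group was described, and these were chosen after their values were seen. The alternatives tried were upper-quartile and RLE scaling, no or a stricter filter (1 CPM in 3 libraries), DESeq2 1.42.0, limma-voom with quality weights (limma 3.58.1), 2 groups only, an adjusted p of 0.1, a fold threshold of 1.5, covariates for other cells, exclusion of genes within 10 Mb of Tyrobp or Inpp5d, and each library left out. Promoter windows are the 250 bases before RefSeq starts, matched by symbol for 11828 of 20355 tested symbols; Sqle, Stard4 and Bhlhe40 had no entry. Values of some list members are not reported here. Among the genes of highest CPM, Gm10925 (log2 fold change -0.81) is an unprocessed pseudogene whose reads may belong to a copy.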

Additional observations from a re-analysis of the deposited data

How the results depend on the processing

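No paired analysis was possible because the replicate numbers are the order of the samples and the sample titles of the compared groups share no number. The 183 calls were 183 with RLE scaling, 192 with upper-quartile scaling, 155 without a filter, 269 with the stricter filter and 191 with limma-voom. They were 1038 with DESeq2, 104 with the 2 compared groups only, 376 at an adjusted p of 0.1, 37 against a fold of 1.5, 46 and 103 with the covariates for neutrophils and for neurons and astrocytes, 50 without the pair of libraries highest in S100a8, and 66 to 183 with each library left out. All 183 kept their sign in each setting that tested them, and 48 of them, 36 lower, were called in all 11 fits with a library left out. The share of lower calls, 70.5%, was 52.2% with DESeq2, 89.2% against a fold of 1.5, 80.4% with the neutrophil covariate and 86.0% without the libraries with most S100a8. The number of second-stage DAM genes called lower, 22, was 11 against a fold of 1.5, 13 with the neutrophil covariate and 16 to 26 with a library left out. The number of sterol genes called lower, 9, was 14 with DESeq2, 2 with 2 groups only, 0 against a fold of 1.5, 2 with the neutrophil covariate, 4 with that for neurons and astrocytes, 2 without the pair highest in S100a8, and 1 to 7 with a library left out. The difference between backgrounds called 36 genes with DESeq2 and 0 to 1 with a library left out (Gpnmb without Tyrobp-/-;NLGF replicate 2, Mamdc2 without compound replicate 1). With the neutrophil covariate or fewer libraries the fits have fewer residual degrees of freedom; beyond this the cause was not tested. At 3 libraries per group, changes of low genes were not detectable unless they were large.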

Other observations

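Some called genes fall outside the groups described above and were picked after their values were seen. Gnas, the stimulatory G protein subunit, was at 229 ± 34.1 CPM in the compound mutant and 471 ± 67.3 CPM in Inpp5d+/-;NLGF (SD, n = 3; log2 fold change -1.04, adjusted p = 0.00624, edgeR), the adenylate cyclase gene Adcy3 fell (-1.51, 0.0388), and Ramp1, a subunit of the CGRP receptor, fell from 417 ± 88.6 to 206 ± 26.4 CPM (adjusted p = 0.0408). The exons of Gnas overlap those of Gm20721, which fell alike, so reads in the shared part cannot be told apart. Rgs2, which shortens signals of Gq-coupled receptors, rose from 597 ± 58.7 to 919 ± 30.7 CPM (0.62, 0.0402), as did the G protein subunit gene Gna15 (0.45, 0.0406).

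Further decreases were seen in the actin-related protein gene Actr3b (54 ± 9.51 to 7.41 ± 1.94 CPM, -2.86, 0.000977), Coro1c (-0.86, 0.0227) and the phospholipid-binding annexin genes Anxa5 (277 ± 32.1 to 116 ± 11 CPM, -1.26, 0.00392) and Anxa4 (-0.95, 0.0191). Alox5ap, which presents arachidonic acid to 5-lipoxygenase, was at 274 ± 27.3 against 143 ± 15.7 CPM (0.93, 0.0108), although its exons overlap Gm19719, which also rose. The adaptor gene Sla (0.48, 0.0471) and the transcription regulator Id2 (0.70, 0.0196) rose. Of these genes, Adcy3 and Sla passed in 1 and Rgs2, Gna15 and Ramp1 in 2 of the 11 fits with a library left out. These values are descriptions, and no list of such genes was tested.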
